A study of Mus musculus with 12 samples.

Results

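The 8 genes described here encode inhibitors of proteases: the cystatins Cst7, Cst3 and Cstb, the serpins Serpinb1a, Serpinb6a, Serpina3g and Serpina3n, and the secretory leukocyte protease inhibitor Slpi. They were chosen because Cst7, Serpinb1a and Slpi were lower in microglia given luteolin and LPS than in microglia given LPS alone. Differences in that comparison are therefore given as a description of the genes selected on them, with no test. The annotation used names 9 probe sets for 7 of the 8 genes, among 45101 probe sets and 18194 genes on the array. The expression of Serpina3g was not analysed here.

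RNA was hybridized to Affymetrix Mouse Genome 430 2.0 arrays from BV-2 cells, a mouse microglial line immortalized with a retrovirus that carries oncogenes, so all 4 conditions come from this 1 line. The cells were kept for 24 h with 50 µM luteolin, a plant flavonoid, and 50 ng/ml lipopolysaccharide (luteolin + LPS), with 50 ng/ml LPS, with 50 µM luteolin, or without treatment (control). Each condition had 3 arrays, numbered as replicates 1 to 3, and the study describes 3 independent stimulation experiments. LPS is the component of bacterial outer membranes that activates microglia through Toll-like receptor 4.

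Cystatins block the papain-like cysteine proteases, chiefly the lysosomal cathepsins. Cystatin F, the product of Cst7, acts inside lysosomes of immune cells on cathepsin C, cystatin C (Cst3) is secreted and is abundant in brain, and stefin B (Cstb) works in the cytosol. Serpins are suicide substrates: the protease cleaves an exposed loop and stays trapped on the inhibitor. Serpins of clade B stay inside the cell, where Serpinb1a blocks neutrophil elastase and cathepsin G, while the secreted Serpina3n belongs to the acute phase proteins. Slpi is a small secreted protein of the whey acidic protein (WAP) family that blocks the same neutrophil proteases and is known as an LPS-responsive gene of macrophages.

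The values are RMA intensities, called signals below, and the median signal of an array lay between 52.2 and 56.4. A signal of 50, the minimum used in the study, was required as a mean in at least 1 condition for a gene to be tested. Of 11 microglia and macrophage markers, all had a probe set, and 8 or 9 of them reached 50 on all 3 arrays of a condition. Their summed signal was 42386 to 59874 in luteolin + LPS, 50082 to 58926 in LPS, 49348 to 56019 in luteolin and 51332 to 54671 in control. The markers of resting microglia were close to the minimum, with 36.0 to 60.1 for Cx3cr1, 39.4 to 120.4 for Tmem119 and 17.3 to 112.3 for P2ry12. Of 8 neutrophil markers with a probe set, 5 were under 50 on all 12 arrays, S100a8, S100a9, Elane, Mpo and Ngp. The other 3 reached 50 on some arrays, with 37.4 to 85.4 for Camp, 40.3 to 68.0 for Ltf and 34.3 to 197.4 for Mmp8. The summed signal of the 8 was 294 to 367 in luteolin + LPS, 314 to 326 in LPS, 275 to 447 in luteolin and 282 to 362 in control. Of 21 markers of astrocytes, oligodendrocytes, neurons and fibroblasts, 11 were under 50 on all arrays and the highest signal was 234. Genes raised by LPS were taken as those with limma's adjusted p under 0.05 and a log2 difference above 1 in LPS against control. The LPS arrays therefore read high on these genes by choice. Luteolin + LPS replicate 2 stood apart: over 181 genes raised by LPS, its median log2 difference from the control mean was 0.78, against 1.67 and 1.83 in the other luteolin + LPS arrays and 1.91 to 2.14 in the LPS arrays. For the genes chosen on luteolin + LPS against LPS, the differences are given with and without this array. Bulk arrays cannot tell fewer expressing cells apart from less RNA per cell.

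The sequences upstream of Slpi, Cst7 and Serpinb6a are shown because these genes had different patterns: Slpi rose with LPS, Cst7 read lower on all arrays with luteolin, and Serpinb6a read lower on all arrays with LPS. They are the 250 bases before the annotated gene start, 5′ to 3′ on the gene's strand, from the RefSeq promoter table of GRCm38.p6, in which 6 of the 8 genes had 7 starts. Both strands were searched for the letters of 7 motifs: NFkB (GGANTTNCC), AP-1 (TGANTCA), the STAT site GAS (TTCNNNGAA), IRF (GAAANNGAA), C/EBP (TTGCNNAA), PU.1 (GAGGAAG) and the TATA box (TATAAA). Matches are in capitals.
Slpi, chr2:164356508-164356757, minus strand: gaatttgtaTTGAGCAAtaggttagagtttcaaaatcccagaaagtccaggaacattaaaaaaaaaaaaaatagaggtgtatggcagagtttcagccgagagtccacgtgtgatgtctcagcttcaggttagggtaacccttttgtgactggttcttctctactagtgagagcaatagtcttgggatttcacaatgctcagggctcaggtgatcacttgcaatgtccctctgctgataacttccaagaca
Cst7, chr2:150570165-150570414, plus strand: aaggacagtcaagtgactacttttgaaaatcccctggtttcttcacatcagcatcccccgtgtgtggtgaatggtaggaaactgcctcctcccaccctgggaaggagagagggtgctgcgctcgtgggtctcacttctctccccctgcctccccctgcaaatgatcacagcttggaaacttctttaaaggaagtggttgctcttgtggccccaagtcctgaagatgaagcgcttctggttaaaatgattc
Serpinb6a, chr13:34002795-34003044, minus strand: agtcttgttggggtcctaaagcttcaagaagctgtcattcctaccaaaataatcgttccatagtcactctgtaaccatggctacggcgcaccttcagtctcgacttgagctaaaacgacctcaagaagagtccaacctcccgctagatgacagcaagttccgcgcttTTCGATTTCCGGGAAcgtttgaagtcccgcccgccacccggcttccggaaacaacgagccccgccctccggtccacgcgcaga
The Slpi sequence held 1 match, to C/EBP, which begins 241 bases before the start (position -241), and 9.56% of 32851 promoters hold that motif. The Cst7 sequence held no match to the 7 motifs. The Serpinb6a sequence held an IRF match at -83 and a GAS match at -77 that share bases, motifs held by 7.13% and 7.02% of the promoters. The other Serpinb6a start, Cst3 and Serpina3n had no match, and Serpina3g had 1 GAS match, at -33. None of the starts matched the NFkB letters, which 3.15% of promoters hold, or those of AP-1, PU.1 and the TATA box, held by 6.75%, 10.6% and 12.4%. A match is a description of the letters only.

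Cst7 had lower signals on every array with luteolin than on any array without it. Its signals were 1317, 838 and 1564 in luteolin + LPS (replicates 1 to 3), against 4625, 3457 and 3280.1 in LPS. Luteolin arrays read 853, 1464 and 1478, against 2872, 2473 and 2691 in control. The highest array with luteolin was below the lowest control array. In luteolin + LPS the geometric mean was 32.0% of that in LPS, a log2 difference of -1.64 (SE 0.26, and -1.38 without luteolin + LPS replicate 2). In luteolin it was 45.9% of that in control, a log2 difference of -1.12 (SE 0.26, n = 3 each). That comparison shares no array with the one the gene was chosen on. It did not pass limma's test over all genes (adjusted p = 0.225, 0.109 with the replicate number as a block, and 0.00841 to 0.484 over 20 alternatives), and the lowest of these, with array weights, did pass. LPS alone against control gave a log2 difference of 0.49 (SE 0.26, adjusted p = 0.324), with all 3 LPS arrays above all 3 control arrays. Luteolin + LPS against luteolin gave -0.03 (SE 0.26, adjusted p = 0.989) and 0.23 without luteolin + LPS replicate 2. These last comparisons share arrays with the one on which Cst7 was chosen. The order of the means was LPS, control, luteolin and luteolin + LPS, and only the last of these neighbours, luteolin and luteolin + LPS, overlapped on single arrays.

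Slpi rose with LPS, with and without luteolin, and its means with luteolin were below those without it in both states. Its signals were 3355 in luteolin + LPS replicate 1, 2253 in replicate 2 and 5479 in replicate 3, against 6808, 10632 and 8236 in LPS. They were 593, 815 and 600.3 in luteolin, against 1251, 1058 and 744 in control. The 6 arrays with LPS all lay above the 6 without it. LPS raised Slpi 8.46-fold over control, a log2 difference of 3.08 (SE 0.31, adjusted p = 0.000794), and it passed limma's test with any 1 of the 12 arrays left out. Luteolin + LPS raised it 5.23-fold over luteolin, a log2 difference of 2.39 (SE 0.31, adjusted p = 0.00288), which passed in the same 12 fits. Each of these 2 comparisons shares 3 arrays with the one on which Slpi was chosen. The difference between both responses, -0.69 (SE 0.44), and that between luteolin + LPS and LPS, -1.28 (SE 0.31), are descriptions, since Slpi was chosen on them. They were -0.39 and -0.97 without luteolin + LPS replicate 2, the array with the lowest Slpi signal of its condition. In luteolin, Slpi differed from control by -0.59 (SE 0.31, adjusted p = 0.633), and 1 luteolin array lay within the range of the control arrays.

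Serpinb1a was lowest where luteolin and LPS were combined. Its signals were 1097, 607 and 956 in luteolin + LPS, against 4423, 2740.9 and 3462 in LPS. They were 3215, 6585 and 6142 in luteolin, against 8280.5, 7067 and 8325 in control. The luteolin + LPS arrays all lay below every other array, and luteolin replicate 1 lay within the range of the LPS arrays. The geometric mean in luteolin + LPS was 24.7% of that in LPS, a log2 difference of -2.01 (SE 0.30, -1.76 without luteolin + LPS replicate 2), and 10.9% of that in control. Against luteolin, luteolin + LPS lowered Serpinb1a by a log2 difference of -2.56 (SE 0.30, adjusted p = 0.00150), -2.31 without luteolin + LPS replicate 2, and the test was passed with any 1 array left out. These arrays also entered the comparison on which the gene was chosen. LPS against control gave -1.18 (SE 0.30, adjusted p = 0.0510), just short of the threshold of 0.05, and 0.0368 with the replicate block (0.000977 to 0.140 over 20 alternatives). All 3 LPS arrays lay below all 3 control arrays, and these LPS arrays too entered the comparison on which the gene was chosen. In luteolin the difference from control was -0.64 (SE 0.30, adjusted p = 0.571), or -0.31 without luteolin replicate 1, although the arrays of both conditions did not overlap.

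A second probe set of Serpinb1a, 1448301_s_at, has a suffix that marks probes shared by more than 1 transcript. In each comparison its difference had the same direction as that of 1416318_at, described above. Its signals were 58.2, 53.9 and 40.2 in luteolin + LPS, 302, 122 and 171 in LPS, 281, 629 and 582 in luteolin, and 683, 587 and 625 in control. The log2 difference of luteolin + LPS from LPS was -1.88 (SE 0.35), or -1.77 with the 1 array under 50 set to 50, an alternative chosen with the values in view. LPS against control gave -1.77 (SE 0.35) and an adjusted p of 0.0241 over all probe sets. Luteolin against control gave -0.43 (SE 0.35, adjusted p = 0.859 over all probe sets), and here the arrays of both conditions overlapped. Serpinb1a has near-identical neighbours in the mouse, and whether their transcripts add to these signals was not tested.

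**Figure D1:**
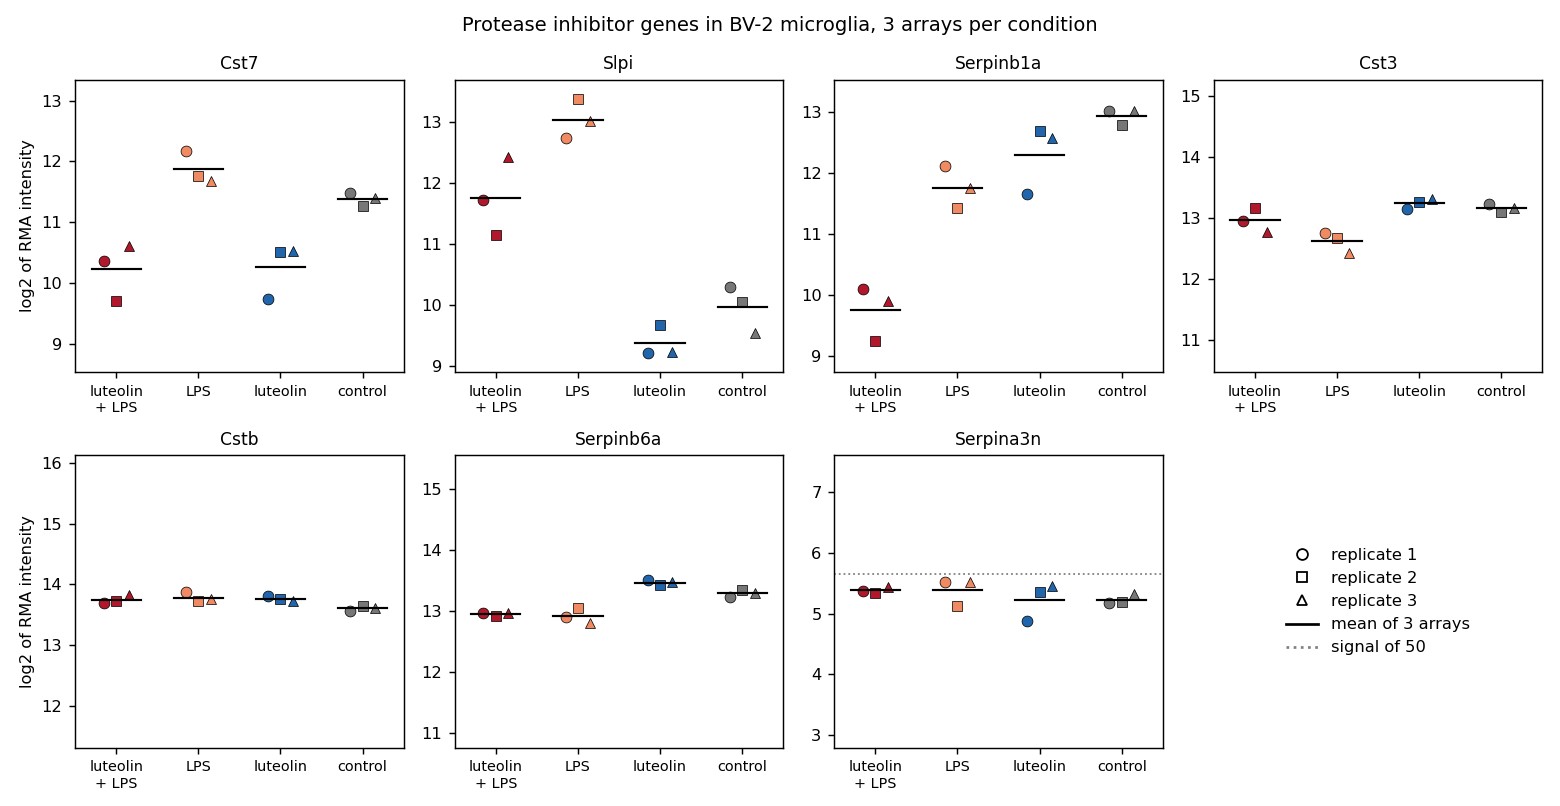
Log2 of the RMA intensity on each of 3 arrays per condition (marker shape gives the replicate number) for the 7 genes with a probe set, with the mean of each condition as a bar. Every panel spans the same number of log2 units, and levels of different probe sets are not comparable. Cst7 lies lower on the 6 arrays with luteolin, Slpi higher and Serpinb6a lower on the 6 with LPS, Serpinb1a lowest on the 3 luteolin + LPS arrays, and Serpina3n lies under the dotted line at a signal of 50 on all arrays.

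Cst3, Cstb and Serpinb6a had log2 differences between -0.55 and 0.34 in all comparisons. Cst3 had signals of 7879, 9199 and 6987 in luteolin + LPS, against 6884, 6498 and 5534 in LPS. It had 9097, 9845 and 10147 in luteolin, against 9625, 8744 and 9205 in control. LPS lowered Cst3 to 68.4% of control, a log2 difference of -0.55 (SE 0.13, adjusted p = 0.0393). The call was lost without any 1 of the control or luteolin arrays and without LPS replicate 2 or 3, with an adjusted p of 0.0529 to 0.135, and with only both conditions compared (0.0922), and the range over 20 alternatives was 0.00217 to 0.135. In luteolin + LPS, Cst3 was 127% of LPS, a log2 difference of 0.34 (SE 0.13, and 0.24 without luteolin + LPS replicate 2), the opposite direction to Cst7, Slpi and Serpinb1a. Against luteolin, luteolin + LPS differed by -0.28 (SE 0.13, adjusted p = 0.436), and luteolin against control by 0.08 (SE 0.13, adjusted p = 0.933).

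Serpinb6a, an intracellular serpin whose human counterpart blocks cathepsin G, had signals of 7977, 7745 and 7989.8 in luteolin + LPS, against 7674, 8488 and 7153 in LPS. It had 11658, 10979 and 11354 in luteolin, against 9592, 10452 and 10119 in control. All 6 arrays with LPS lay below the 6 without it. Luteolin + LPS lowered it to 69.8% of luteolin, a log2 difference of -0.52 (SE 0.10, adjusted p = 0.0248). The call was lost without any 1 of the luteolin or luteolin + LPS arrays and without control replicate 3 (adjusted p 0.0506 to 0.115) and with only both conditions compared (0.0922), in a range of 0.0145 to 0.115 over 20 alternatives. LPS against control gave -0.37 (SE 0.10, adjusted p = 0.0569, and 0.0379 with the replicate block, with a range of 0.0102 to 0.180 over 20 alternatives). The difference of luteolin + LPS from LPS was 0.03 (SE 0.10), and that of luteolin from control 0.17 (SE 0.10, adjusted p = 0.653).

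Cstb, the cytosolic stefin, lay between 12147 and 14963 on all 12 arrays with 1422506_a_at and between 7999 and 11244 with 1422507_at. Its log2 difference was -0.04 (SE 0.09) in luteolin + LPS against LPS, 0.18 (SE 0.09, adjusted p = 0.303) in LPS against control, 0.16 (SE 0.09, adjusted p = 0.653) in luteolin against control and -0.02 (SE 0.09, adjusted p = 0.971) in luteolin + LPS against luteolin. The second probe set gave 0.04, 0.24, 0.19 and 0.09 in the same order. All 3 control arrays lay below all other arrays with 1422506_a_at. Serpina3n had signals of 40.6 to 43.1 in luteolin + LPS, 34.9 to 45.9 in LPS, 29.3 to 43.8 in luteolin and 36.1 to 39.8 in control. As each was under 50, the gene was not tested and no fold is given.

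**Figure D2:**
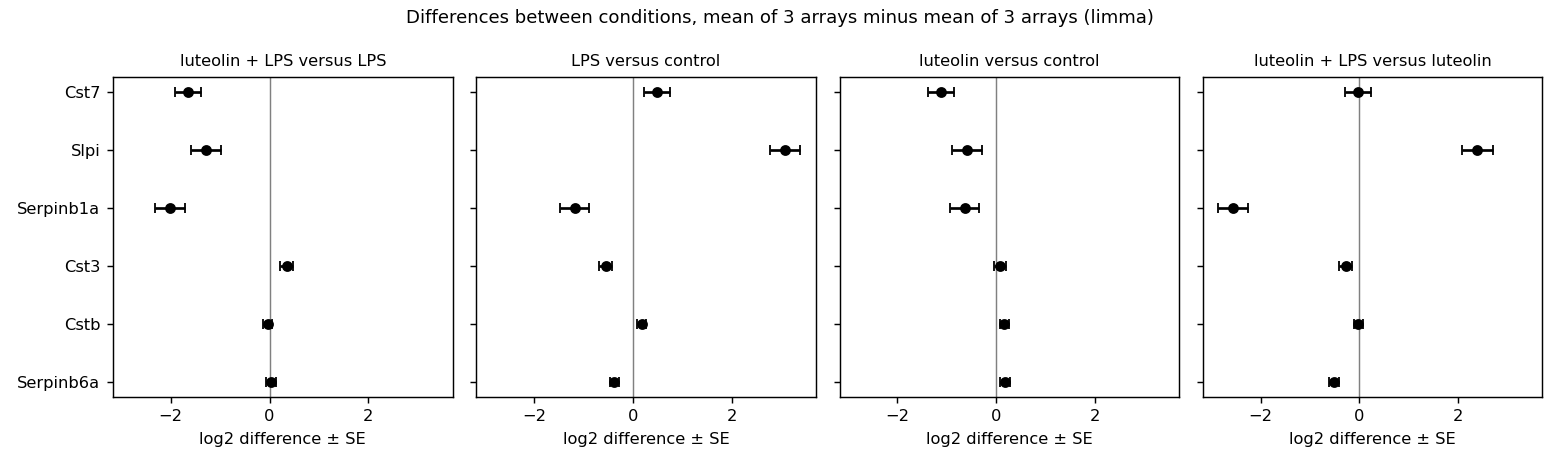
Log2 difference (horizontal axis) of the 6 tested genes in each of 4 comparisons, with points at the difference of the means of 3 arrays and bars of ± 1 SE from limma. Slpi lies at 3.08 in LPS versus control and at 2.39 in luteolin + LPS versus luteolin, while Serpinb1a lies at -1.18 and -2.56 and Cst7 at 0.49 and -0.03.

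The 6 tested genes reached a signal of 50 on all arrays with the probe set used. In LPS against control, 1 rose and 1 fell, Slpi and Cst3, where 1.96% of 12071 genes rose and 2.22% fell. With the replicate block 1 rose and 3 fell, against 4.3% and 6.78%. Arrays of both conditions did not overlap for 6 of 6 genes, 3 higher and 3 lower, where 27.6% of all genes tested did not overlap. In luteolin + LPS against luteolin, 1 rose and 2 fell, Slpi, Serpinb1a and Serpinb6a, where 0.804% of all genes rose and 1% fell, and 3 of 6 did not overlap (17.5% of all genes). Both comparisons share 3 arrays with the one on which the genes were chosen. In luteolin against control no gene was called by limma, 0% of 12071, with 1097 at an unadjusted p under 0.05, 34 called with the replicate block (0.282%) and 962 with array weights. Of the 6 genes, 1 had an unadjusted p under 0.05, Cst7, and 4 did not overlap, Cst7 and Serpinb1a lower and Cstb and Serpinb6a higher, where 19.6% of all genes did not overlap. The median log2 difference of the 6 was -0.26 there, against -0.01 over all genes tested. In luteolin + LPS against LPS, 3 lay lower without overlap, Cst7, Slpi and Serpinb1a, and 1 higher, Cst3. The 3 lower ones were chosen on this comparison, so their count follows from the choice. The share of all genes without overlap there, 16.1%, is therefore no measure for them.

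The arrays of Cst7, Slpi and Serpinb1a were also set against each other within a replicate number. Luteolin + LPS minus LPS was -1.81, -2.05 and -1.07 for Cst7 (replicates 1 to 3), -1.02, -2.24 and -0.59 for Slpi, and -2.01, -2.17 and -1.86 for Serpinb1a on the log2 scale. Luteolin minus control was -1.75, -0.76 and -0.86 for Cst7, -1.08, -0.38 and -0.31 for Slpi, and -1.37, -0.10 and -0.44 for Serpinb1a. All 18 differences were below 0, but for those with LPS this follows from the choice of the 3 genes on that comparison. Replicate 2 had the largest differences with LPS in all 3 genes, and replicate 1 those without LPS. For Serpinb1a, the difference with LPS exceeded that without LPS in each replicate, by a mean log2 difference of -1.38 (SE 0.42, and -1.13 without luteolin + LPS replicate 2), a value given as a description only. For Cst7 the same value was -0.52 (SE 0.37), or -0.26 without that array.

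**Figure D3:**
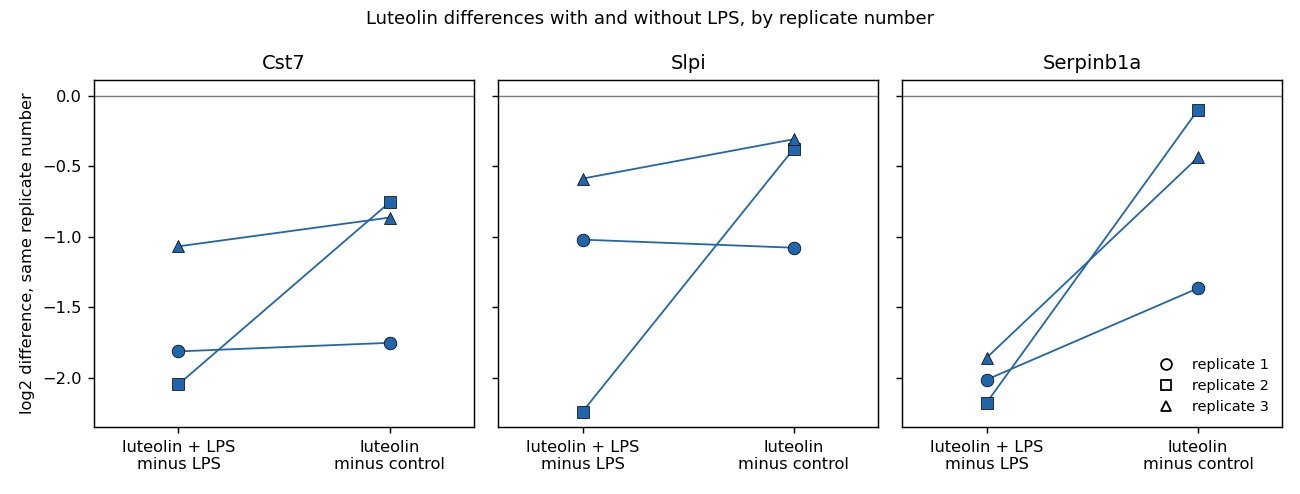
Log2 difference between arrays of the same replicate number (vertical axis) for luteolin + LPS minus LPS and for luteolin minus control, with 1 line and marker shape per replicate. All 18 points lie below 0, and those with LPS belong to the comparison on which the genes were chosen. In Serpinb1a the 3 differences with LPS lie between -2.17 and -1.86 while those without LPS lie between -1.37 and -0.10.

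Among other protease inhibitors, few changes passed the test without the replicate block, and more passed with it. Of 109 such genes listed, 78 had a probe set and 29 were tested: 1 other cystatin-type gene, 8 serpins of clades A and B, 3 of other clades, 11 WAP, Kunitz and Kazal inhibitors and 6 further ones. In luteolin + LPS against LPS none rose or fell by limma, where 0.149% of all genes rose and 0.356% fell. At an unadjusted p under 0.05 there were 4, where 1795 of 12071 genes (14.9%) had one. With the replicate block Serpinb8, an intracellular serpin, fell by 0.90 (adjusted p = 0.0203, block background 1.95% rose and 2.84% fell, 0.0203 to 0.448 over 20 alternatives). The median log2 difference of the 29 was -0.02, against 0.02 over all genes tested. In LPS against control, 1 rose and none fell, with a median of 0.07 against -0.04 over all genes, and 5 rose and 1 fell with the replicate block. Of all genes tested, 1.96% rose and 2.22% fell there, and 4.3% and 6.78% with the block. Of the 11 WAP, Kunitz and Kazal inhibitors, 9 had a difference above 0 in luteolin against control and 10 in luteolin + LPS against luteolin. In luteolin + LPS against LPS, 4 did. In LPS against control all 11 had a difference above 0, with a median of 0.22, and 1 of them passed.

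That gene was Wfdc18, a small WAP domain protein like Slpi. Its probe set has the suffix that marks probes shared by more than 1 transcript. Whether other transcripts add to its signals was not tested. The probe sets of Hrg and Ctse, described below, have the same suffix. Wfdc18 had signals of 211, 219.8 and 149 in LPS, against 90.1, 93.7 and 78.8 in control. All LPS arrays lay above all control arrays, and the log2 difference was 1.13 (SE 0.26, adjusted p = 0.0359). The call was lost without any 1 of the control or luteolin arrays and without LPS replicate 1 or 2 (adjusted p 0.0531 to 0.120). In luteolin + LPS it read 146, 76.8 and 162, a difference from LPS of -0.64 (SE 0.26, adjusted p = 0.274), or -0.31 without luteolin + LPS replicate 2. Its relative Wfdc17 had geometric means of 1875 in luteolin + LPS, 4059 in LPS, 1320 in luteolin and 1171 in control. Against control, LPS gave a log2 difference of 1.79 (SE 0.49, adjusted p = 0.0677, with the block 0.0117, and 0.00171 to 0.181 over 20 alternatives), and differed by -1.11 between luteolin + LPS and LPS (SE 0.49, adjusted p = 0.320), or -0.50 without luteolin + LPS replicate 2.

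The brackets that follow give the log2 difference, the adjusted p without and with the replicate block, and the range of the adjusted p over 20 alternatives. With the replicate block, LPS against control also called the serpins Serpinb9, a granzyme B inhibitor (0.96, SE 0.27, adjusted p = 0.0769, with the block 0.0384, range 0.0262 to 0.201, difference 0.61 without control replicate 1), Serpinb9b (0.81, SE 0.46, adjusted p = 0.349, with the block 0.0333, range 0.0333 to 0.747, difference 0.28 without control replicate 1 and 1.22 without control replicate 2) and Serpinb6b, a close relative of Serpinb6a (-0.74, SE 0.31, adjusted p = 0.215, with the block 0.0279, range 0.0125 to 0.422). It called Spint2, a membrane-bound Kunitz inhibitor, as well (0.39, SE 0.11, adjusted p = 0.0811, with the block 0.0386, range 0.0180 to 0.200). None of the 29 passed in luteolin + LPS against luteolin, with 4 at an unadjusted p under 0.05, as were 1388 of 12071 genes (11.5%). With the replicate block 2 fell, Serpinb6b (-1.09, SE 0.31, adjusted p = 0.139, with the block 0.00806, range 0.00806 to 0.398) and Cd109, a relative of alpha-2-macroglobulin (-1.33, SE 0.39, adjusted p = 0.151, with the block 0.0295, range 0.0153 to 0.417), where 1.74% of all genes rose and 2.85% fell. In luteolin against control none of the 29 was called in either fit, with 2 at an unadjusted p under 0.05, where 9.09% of all genes had one. Timp2 and Hrg, which have the brightest probe sets of their lists, passed in no comparison with that probe set, without or with the block. With the mean of its probe sets, the log2 difference of Timp2 in LPS against control was -0.85 in place of -0.39. In luteolin + LPS against LPS it was 0.29 in place of -0.04. The geometric means were 1639 in luteolin + LPS, 1688 in LPS, 2459 in luteolin and 2206 in control for Timp2, an inhibitor of matrix metalloproteases, and 103.1, 107.6, 101.2 and 85.5 in the same order for Hrg, a plasma protein with cystatin domains.

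The target proteases were described in the same way. Of 42 listed, 41 had a probe set and 24 were tested, 14 cathepsins with legumain and 10 serine proteases. In LPS against control 1 fell and none rose, where 2.22% of all genes tested fell and 1.96% rose. Ctsf, a lysosomal cysteine cathepsin, had signals of 269, 358 and 239 in LPS, against 689, 811 and 603 in control. Its log2 difference was -1.29 (SE 0.18, adjusted p = 0.00322, 0.000874 to 0.0241 over 20 alternatives), and -0.58 with the mean of its probe sets. In luteolin + LPS, Ctsf read 476, 566 and 399, all above the LPS arrays, a log2 difference from LPS of 0.74 (SE 0.18, adjusted p = 0.0911, with the block 0.0257, range 0.0257 to 0.375, difference 0.40 with the mean of its probe sets). None of the 24 passed in luteolin + LPS against LPS, at an unadjusted p under 0.05 there were 6 (14.9% of all genes), and the median was -0.09 against 0.02 over all genes. Of all genes tested, 1.95% rose and 2.84% fell in that comparison with the block. With the block 1 rose and 2 fell there, Ctsf, Ctse (-1.15, SE 0.39, adjusted p = 0.196, with the block 0.0424, range 0.0114 to 0.498, difference -0.68 with the mean of its probe sets) and the secreted serine protease Htra1 (2.01-fold lower, adjusted p = 0.356, with the block 0.0432, range 0.0432 to 0.780, log2 difference -0.49 if luteolin + LPS replicate 2 is left out and -1.54 if replicate 1 of that condition is). Luteolin + LPS against luteolin gave no call, with 4 at an unadjusted p under 0.05 (11.5% of all genes), and with the block Ctsf (-0.61, SE 0.18, adjusted p = 0.152, with the block 0.0358, range 0.0358 to 0.423, difference -0.27 with the mean of its probe sets) and legumain, Lgmn (-0.68, SE 0.18, adjusted p = 0.107, with the block 0.0207, range 0.0207 to 0.320) fell. Legumain also fell with the block in LPS against control (-0.51, SE 0.18, adjusted p = 0.143, with the block 0.0397, range 0.0397 to 0.333). Of all genes tested, the block called 2.85% lower in luteolin + LPS against luteolin and 6.78% lower in LPS against control. Ctsz, with the brightest probe set of the cathepsins, had geometric means of 19284 in luteolin + LPS, 20464 in LPS, 18207 in luteolin and 18958 in control and passed in no comparison. In luteolin against control none of the 24 proteases was called in either of these fits, with 2 at an unadjusted p under 0.05 (9.09% of all genes).

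**Figure D4:**
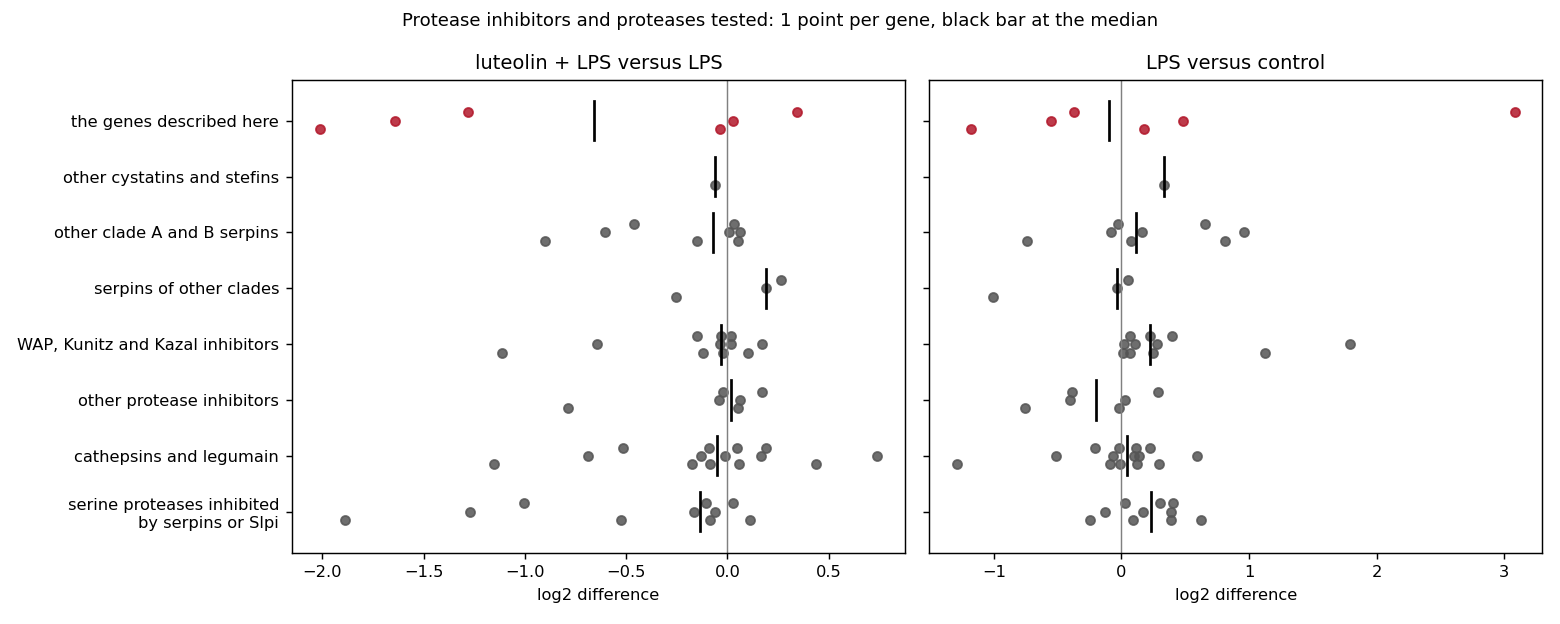
Log2 difference (horizontal axis) of each tested gene in luteolin + LPS versus LPS and in LPS versus control, by list, with the median of each list as a black bar. Medians of the other lists lie between -0.13 and 0.19 in luteolin + LPS versus LPS and between -0.20 and 0.33 in LPS versus control, and the 11 WAP, Kunitz and Kazal inhibitors all lie above 0 in LPS versus control.

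The genes with the pattern most like each of the 3 selected ones were found by the root mean square difference of log2 values, centred per gene, over the 12 arrays. For Cst7 they were Inpp4b, a phosphoinositide phosphatase (0.33), Lpp, a focal adhesion protein (0.34), and Rai14, an actin-binding protein (0.34), where the median over all genes tested was 0.81. Lpp had geometric means of 968 in luteolin + LPS, 2499.7 in LPS, 976 in luteolin and 1935 in control. For Slpi they were Gm41724 (0.46), the death receptor Fas (0.49) and Vnn3, of the vanin family of pantetheinases (0.52), with a median of 1.52 over all genes. Fas had 139 in luteolin + LPS, 231 in LPS, 31.6 in luteolin and 32.9 in control. For Serpinb1a they were Hspb7, a small heat shock protein (0.46), Klhl30 (0.54) and Pik3ip1, an inhibitor of phosphoinositide 3-kinase (0.55), with a median of 1.27. Hspb7 had 524 in luteolin + LPS, 1432 in LPS, 2072 in luteolin and 4533 in control. Inpp4b and Fas had signals under 50 on 6 of the 12 arrays each, the luteolin + LPS and luteolin arrays for Inpp4b and the luteolin and control arrays for Fas, and Vnn3 on 1, so their distances rest partly on signals below the minimum. These likenesses are descriptions over arrays that include those on which the 3 genes were chosen.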

How the data were processed

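Gene expression was measured on 12 Affymetrix Mouse Genome 430 2.0 arrays of BV-2 cells. The authors made the deposited intensities, linear values per probe set, with RMA (background correction, quantile normalization, median polish) in Expression Console 1.0 which hides a shift common to most genes. The methods describe the combined treatment as LPS + LPS, and the labels' extraction text names other cells; luteolin + LPS and BV-2 were taken from the labels' treatment text. Of 45101 probe sets, 34958 named 1 gene, 932 several, and 9211 were unnamed here. The log2 was taken, the probe set with the highest mean kept for each of 18194 genes, and the 12071 with a geometric mean of at least 50 in 1 or more conditions were tested with limma 3.58.1 in R 4.3.3 on 4 group means, adjusted by Benjamini-Hochberg with a threshold of 0.05; the script was tested on simulated data. Figures used Python 3.11.15 and matplotlib 3.10.9. Standard errors are limma's, from the fit without the replicate block unless stated.

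Replicate numbers were taken to pair the arrays: deviations from the group means correlated in all 18 same-number pairs (0.101 to 0.591, median 0.42), and the study names independent experiments. In 36 pairs with different numbers the correlations were -0.563 to 0.483, with a median of -0.30. Deviations sum to 0 within a condition, so positive same-number values bring negative ones elsewhere, and this median is no separate evidence. The fit with the number as a block is printed where it changes a call. Alternatives were the block, only both conditions compared, each array left out, the mean of probe sets, all probe sets, other signal minimums, array weights and an offset of 16. The genes and lists were chosen with earlier results of these data known. Named were all 8 genes, list genes called in a comparison or with the brightest probe set of their list, and the 3 genes nearest in pattern. Serpina3g had no probe set in the annotation used, and its expression was not analysed here. Gene starts are from RefSeq, GRCm38.p6.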

Additional observations from a re-analysis of the deposited data

Results flagged for a closer look

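Spint2, the membrane-bound Kunitz inhibitor, differed by -0.12 on the log2 scale in luteolin + LPS against LPS and by 0.13 in luteolin against control. It stands out because each of the 3 same-number pairs lay below 0 with LPS and above 0 without LPS. Limma's interaction term, a test of this difference, did not pass (-0.25, SE 0.16, adjusted p = 0.999, and at least 0.778 under each of 19 alternatives). The difference with LPS was -0.01 without luteolin + LPS replicate 2. With the mean of its probe sets, the difference without LPS was -0.009, so the opposite direction rests on the probe set used. With 3 arrays per condition, arrays far from their group were not searched for gene by gene. Luteolin + LPS replicate 2, which stood apart over the genes raised by LPS, is described above.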

How the results depend on the processing

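The limits are 3 arrays per condition, 1 probe set per gene in most tests, and signals near the minimum for Serpina3n. In LPS against control, 2 of the 6 genes were called, where 4.18% of all genes were. This was 4 with the replicate block (11.1% of all genes), probe sets averaged per gene (4.51%), array weights (16.2%) or an offset of 16 (4.51%), 3 with a signal minimum of 100 (5.25%), and 1 to 3 with 1 array left out (1 without any of the control arrays, luteolin replicate 2 or 3, or LPS replicate 3). With 1 array left out, 1.63% to 5.46% of all genes were called in LPS against control. With only both conditions compared this share was 2.54%, and with no signal minimum 2.47%. In luteolin against control, array weights called 1, Cst7, and 7.97% of all genes. Of the other protease inhibitors, the replicate block called 1 in luteolin + LPS against LPS. In LPS against control 1 was called, 6 with the replicate block, 2 with only both conditions compared or the mean of probe sets, 5 with array weights, and 0 to 3 with 1 array left out (0 without any control or luteolin array, or without LPS replicate 1 or 2; leaving out luteolin + LPS replicate 2 gave 3). For luteolin + LPS against luteolin none was called, 2 with the replicate block or array weights, 1 with the mean of probe sets, and 0 to 1 with 1 array left out (1 without LPS replicate 1 or luteolin + LPS replicate 1). Of the proteases in luteolin + LPS against LPS none was called, 3 with the replicate block, 1 with array weights, and 0 to 1 with 1 array left out (1 without LPS replicate 1). In LPS against control 1 was called, 2 with the replicate block or no signal minimum, 4 with array weights, and 1 to 2 with 1 array left out (2 without LPS replicate 2). Array weights called 2 in luteolin against control and 1 in luteolin + LPS against luteolin, where the replicate block called 2. Of all genes, the block called 4.79% in luteolin + LPS against LPS and 4.59% in luteolin + LPS against luteolin. With array weights these shares were 2.42% and 4.9%. With 1 array left out they were 0.0911% to 1.17% and 0.571% to 2.51%. The mean of probe sets called 1.84% of all genes in luteolin + LPS against luteolin. The replicate block changed no other call among the inhibitors and proteases tested. Among marker genes it also called 1 lower of 11 microglia and macrophage markers in luteolin + LPS against LPS and in LPS against control, and 1 lower of 3 neutrophil markers in LPS against control. Without and with the block, 1 of these 11 and 1 of these 3 rose in LPS against control. Of all genes, 1.96% rose there without the block and 4.3% with it. Between luteolin + LPS and luteolin, the log2 difference of Cst7 was -0.29 to 0.23 with 1 array left out, above 0 without luteolin + LPS replicate 2 or luteolin replicate 2 or 3. That of Cstb was 0.036 with the mean of its probe sets, 0.021 with array weights and -0.058 to 0.0077 with 1 array left out, above 0 without replicate 1 of either condition, and neither gene was called. Of 400 alternative values of tested differences of single genes, 353 kept their direction and their side of the threshold. Of 120 for luteolin + LPS against LPS, which have no test, 116 kept their direction and moved by less than the spread between replicates. The cause of the other changes was not tested.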

Other observations

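Serpinf1, which encodes the neurotrophic serpin pigment epithelium-derived factor and has the brightest probe set among serpins of other clades, varied with the replicate number more than with the treatment. Replicate 1 read 96.5 in luteolin + LPS, 174 in LPS, 165 in luteolin and 140.2 in control. Replicate 2 read 765 in luteolin + LPS, 1012 in LPS, 2055 in luteolin and 3340.5 in control, and replicate 3 read 773, 546, 1365 and 1664 in the same order. Its log2 difference in LPS against control was -1.01 (SE 1.32, adjusted p = 0.704, with the replicate block SE 0.35 and adjusted p = 0.0983).

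Ctsc, the lysosomal aminopeptidase on which cystatin F acts, and F10, which encodes coagulation factor X, were chosen after their values had been seen. Ctsc had geometric means of 4266 in luteolin + LPS, 6878 in LPS, 4223 in luteolin and 5906 in control, with a log2 difference of -0.69 (SE 0.25, adjusted p = 0.230) in luteolin + LPS against LPS and -0.48 (SE 0.25, adjusted p = 0.624) in luteolin against control. With the mean of its probe sets the first was -0.09, and without luteolin replicate 1 the second was -0.23. F10 had signals of 157, 123 and 474 in luteolin + LPS, against 773, 885 and 683 in LPS (log2 difference -1.89, SE 0.68, adjusted p = 0.222). Neither passed the test in these comparisons.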
